A study of Mus musculus with 34 samples.

Results

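MK-1775 (adavosertib) is an inhibitor of the kinase WEE1, and its effect on splicing and on gene expression was measured in mouse Neuro-2A (N2A) neuroblastoma cells. The treated arm was 1 library of 34, carried under the code OICR.KI.2016_1_P14, and it was set against the 3 libraries of cells that received the solvent alone (DMSO A, B and C). All cells were exposed for 24 h in 0.4% DMSO, and MK-1775 was used at 2 µM. The name and dose come from the study's compound list, since the sample labels give the code alone. The remaining 30 libraries cover 26 other compounds, of which 4 histone deacetylase (HDAC) inhibitors have 2 libraries each. N2A is an established cell line, so these values describe that line. With 1 MK-1775 library there was no replicate check on the treatment: calls made from reads compare libraries, not conditions. The study describes its DMSO controls as biological replicates, while the labels do not say which of the libraries came from separate cultures, so part of their spread may be technical.

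WEE1 places an inhibitory phosphate on the cyclin-dependent kinases CDK1 and CDK2, and the related kinase PKMYT1 does the same to CDK1. The CDC25 phosphatases take this phosphate off, which lets cells enter mitosis, and loss of WEE1 activity also lets CDK2 fire replication origins and brings DNA damage in S phase. Microexons are very short exons, many of them kept in neurons by the splicing activators SRRM4 and SRRM3, and most keep the reading frame.

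Inclusion of an exon or retention of an intron is given as PSI, the percent of transcripts that carry the segment, and ∆PSI is MK-1775 minus the mean of the DMSO libraries. Microexons among those whose inclusion differed most are printed with that of Mef2d, the exon carried by the study's reporter, so that their length and frame can be seen. They were read from GENCODE transcripts of the GRCm38 build. Capitals mark the microexon and lower case the last and the next 20 nt of the neighbouring exons, all of it coding sequence.
Mllt4: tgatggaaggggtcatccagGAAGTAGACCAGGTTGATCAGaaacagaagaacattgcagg
Fmnl1: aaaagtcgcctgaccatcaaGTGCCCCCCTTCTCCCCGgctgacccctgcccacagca
Dst: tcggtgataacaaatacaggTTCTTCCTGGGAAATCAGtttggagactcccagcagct
Shank2: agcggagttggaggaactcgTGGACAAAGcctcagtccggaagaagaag
2410002O22Rik: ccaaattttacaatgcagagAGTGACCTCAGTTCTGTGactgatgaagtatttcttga
Exoc1: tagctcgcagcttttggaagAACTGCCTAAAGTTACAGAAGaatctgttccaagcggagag
Plekha5: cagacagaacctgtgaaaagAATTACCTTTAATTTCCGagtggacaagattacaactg
Mef2d: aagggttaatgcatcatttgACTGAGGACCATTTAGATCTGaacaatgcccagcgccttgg

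The 4 libraries were of unequal depth. Reads across exon junctions, summed over all annotated introns, came to 41427316 in DMSO A, 36273966 in DMSO B, 20406913 in DMSO C and 26424129 in MK-1775, within a range of 18096496 to 41427316 over the 34 libraries. Of 29 neuroblastoma marker genes looked for, 24 were above 5 RPKM, while none of the fibroblast, immune, endothelial, glial or epithelial markers reached that level in DMSO or MK-1775.

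Exons under MK-1775 were called lower far more often than higher, 1549 against 207. An event was called where ∆PSI was at least 10 in size and the reads gave a posterior above 0.95 for its direction. Of 602 microexons tested (27 nt or shorter), 62 were called lower, a share of 10.3%, and 9 higher, a share of 1.5%. Of 57344 longer cassette exons, 1487 were called lower (2.59%) and 198 higher (0.345%). For 303 of the 602 microexons the files hold no score of read balance, so these were accepted on coverage alone. Among them 23 were lower (7.59%) and 5 higher, against 39 lower (13.04%) and 4 higher of the 299 with both filters. All 62 lower microexons and 1480 of the 1487 lower cassette exons lay outside the range of the 3 DMSO libraries. This largely follows from the call, which asks for at least 10 PSI below the mean of those libraries. Of 86737 introns, 427 were called higher (0.492%) and 159 lower (0.183%). In 85009 of them DMSO PSI was 10 or less, which leaves almost no room for a call of lower. Of these, 263 were higher and 0 lower. Among the 1728 introns above 10 the calls were nearly even, 164 higher (9.49%) and 159 lower (9.20%). Alternative 3′ splice sites were called higher 275 times (0.911%) and lower 284 times (0.941%) of 30193, and alternative 5′ splice sites 283 times (1.28%) and 295 times (1.33%) of 22193. The competing sites of an event mirror each other, which keeps these counts nearly equal.

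The number of skipped cassette exons was above that of every other compound. The same rule applied to the 26 other compounds, all compared with the same DMSO libraries, gave between 176 and 1366 lower cassette exons with a median of 415.5. It gave between 156 and 639 higher ones, and 24 compounds had more than the 198 of MK-1775. For lower microexons the range was 2 to 125, and 4 compounds had more than MK-1775. In 700 of the 1487 lower cassette exons (47.1%), the MK-1775 library had the lowest PSI of all libraries that passed. These exons were called on a low MK-1775 value. A share above the 8.01% of all cassette exons tested therefore follows from the choice.

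**Figure D1:**
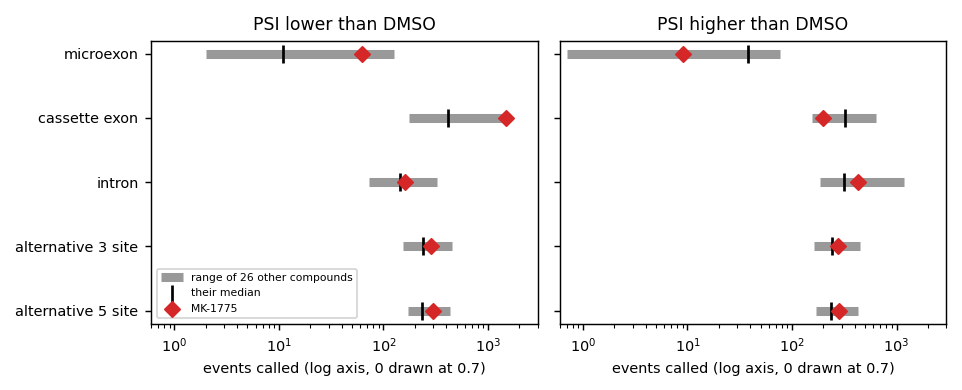
Number of events called lower (left) or higher (right) than DMSO in each class, on a log axis, for MK-1775 (diamonds) and for 26 other compounds (bar, lowest to highest; tick, median). MK-1775 lies past the end of the bar for lower cassette exons, 1487 against at most 1366, and inside the bars elsewhere.

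The test against replicate spread called far fewer events. A limma fit on the logit of PSI took its spread from the DMSO libraries and the paired libraries of the 4 HDAC inhibitors. The lone MK-1775 library was assumed to vary like them. Of 192896 events it called 11 at an adjusted p below 0.05 and at least 10 PSI (0.0057%), 8 lower and 3 higher, while 16689 events had an unadjusted p below 0.05. In each of the 11 the DMSO libraries read exactly 100 or exactly 0, and no microexon was among them, although 75 of 588 microexons had an unadjusted p below 0.05. Without DMSO A or without DMSO B this rule called 0 events, and without DMSO C it called 61. On untransformed PSI the same fit called 920, among them 580 lower and 25 higher cassette exons, and 30 lower and 5 higher microexons.

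Microexons with intermediate inclusion carried most of the decreases. Of 159 microexons with a DMSO PSI above 10 and below 90, 49 were lower (30.8%) and 5 higher (3.14%), with a median ∆PSI of -4.95 over all 159. Of 215 at 90 PSI or more, 13 were lower (6.05%). The 228 at 10 PSI or less had almost no room for a call of lower. Of the 62 lower microexons, 58 had a length that is a multiple of 3 (93.5%), against 74.4% of those tested. The frame-keeping share among all microexons of intermediate inclusion was 90.6%.

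Mllt4, Fmnl1, Dst, Shank2 and 2410002O22Rik were among the largest decreases. The 21-nt microexon of Mllt4 (afadin, an adaptor of cell junctions; chr17:13848355-13848375, plus strand) had a PSI of 56.09, 64.46 and 65.73 in DMSO A, B and C and 33.29 in MK-1775. This was the lowest value of all 34 libraries, from 354 reads, and the limma adjusted p was 0.41. Fmnl1 encodes a formin that builds actin filaments, and its 18-nt exon (chr11:103183016-103183033) stood at 69.43, 97.96 and 88.0 in DMSO and at 56.34 in MK-1775, a wide DMSO spread.

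The 18-nt exon of Dst (dystonin, a cytoskeletal linker; chr1:34296742-34296759) fell below all other libraries, at 83.8, 91.9 and 89.99 in DMSO and 61.4 in MK-1775. Shank2, a scaffold of the postsynaptic density, had the shortest exon of the set, 9 nt (chr7:144396638-144396646), at 58.33, 64.1 and 37.62 in DMSO and 26.37 in MK-1775. With 27 reads in MK-1775 and 31 in DMSO C, Shank2 was the least precise of these values. The 18-nt exon of 2410002O22Rik (chr13:104152165-104152182) was the most precise, from 666 to 1356 reads, at 52.89, 53.87 and 55.55 in DMSO and 27.13 in MK-1775.

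The Mef2d microexon encodes part of a neuronal form of this transcription factor (chr3:88161781-88161801), and it was called lower. Its PSI was 89.54, 88.72 and 88.68 in DMSO and 77.13 in MK-1775, a ∆PSI of -11.8. The study's panel of exons for RT-PCR held 3 more microexons, none of them called. Mast2, a microtubule-associated kinase, read 47.05, 48.87 and 33.34 in DMSO and 33.56 in MK-1775, inside the DMSO range. Trappc9, of a vesicle-tethering complex, read 29.73, 31.61 and 33.24 against 22.84, and Ergic3, of the secretory pathway, read 33.86, 39.75 and 42.01 against 43.2. Of the longer panel exons, the 45-nt exon of Asph was called lower (70.79, 56.48 and 57.45 in DMSO, 42.47 in MK-1775), as was the 36-nt exon of Zdhhc20 (28.96, 41.41 and 31.3, against 20.25). Mgrn1 was not called, at 25.64, 16.84 and 17.1 against 27.92.

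**Figure D2:**
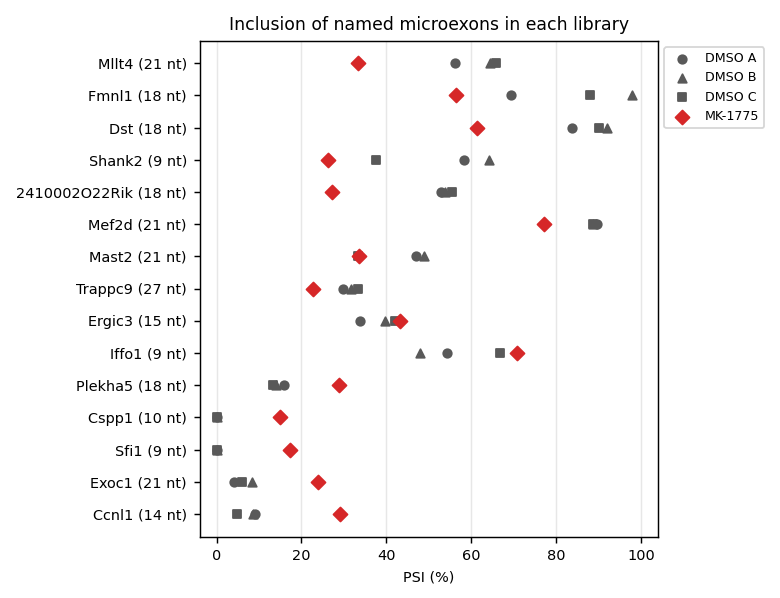
PSI of the named microexons in each library, with DMSO A, B and C in grey and MK-1775 as red diamonds; rows run from the largest decrease to the largest increase. The red point lies left of all grey points in the 5 upper rows, as in Mllt4 at 33.29, and right of them in the 6 lower rows, as in Ccnl1 at 29.05.

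Few microexons gained inclusion. Ccnl1 encodes cyclin L1, a partner of splicing-factor kinases, and its 14-nt exon (mm9 chr3:65754135-65754148) went from 9.08, 8.58 and 4.9 in DMSO to 29.05 in MK-1775 (adjusted p = 0.23, limma). Exoc1, a subunit of the exocyst that tethers vesicles, had a 21-nt exon (chr5:76540747-76540767) at 4.22, 8.41 and 6.0 in DMSO and at 23.81 in MK-1775. The 18-nt exon of Plekha5 (chr6:140537006-140537023) went from 15.87, 14.02 and 13.26 to 28.87. In all 3 the DMSO libraries were close together and MK-1775 was clear of them. The 9-nt exon of Iffo1 was nearer to its DMSO spread, at 54.31, 47.99 and 66.78 against 70.67.

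Both other named increases started from 0 in DMSO. The 9-nt exon of Sfi1, a centrosome protein, was at 0 in each DMSO library, where 117 to 225 reads allow a share of up to 2.56%, and at 17.26 in MK-1775. Sfi1 has near-identical copies in the mouse genome, so its reads are uncertain in origin. The 10-nt exon of Cspp1, also a centrosome and spindle protein, was at 0 on 16 to 48 reads, which allow up to 18.8% in the shallowest library, and at 14.89 on 27 reads in MK-1775. Over the 3 DMSO libraries 103 reads hold none with the Cspp1 exon, which allows a share of up to 2.91%, and the event was called at a posterior of 0.989. The limma adjusted p was 0.14. These limits cover counting error only.

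Cassette exons longer than 27 nt were also called lower more often than higher. Of 2781 with a DMSO PSI above 10 and below 90, 658 were lower (23.7%) and 154 higher (5.54%), and the median ∆PSI over all 2781 was -3.90. Of 52889 exons at 90 PSI or more in DMSO, which have almost no room for a call of higher, 829 were lower (1.57%). Those 829 sat between shorter introns than the exons tested, with a median upstream intron of 768 nt against 1334 and a median downstream intron of 968 nt against 1242. Their median GC content was 53.2% against 50.6%, and they had fewer reads, with a median of 150 in MK-1775 against 279. The part of read number and base composition in this difference was not tested.

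Skipped exons were spread over many genes. The 1487 lower exons belonged to 1201 genes, of which 223 held 2 or more and 13 held 4 or more. Pms2, a mismatch repair protein, had 5 lower exons. The host genes themselves moved little in level: the 950 above 5 RPKM had a median centred log2 ratio of -0.03, with 10 more than 2-fold higher (1.05%) and 0 lower. Over the 6881 host genes of any tested cassette exon these shares were 1.37% and 0.262%, near those of the genes with skipped exons.

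The 8 cassette exons called by limma were all fully included in DMSO. Among them are exons of Rnaseh2b, Prkdc, Rhebl1, Stk11ip, Xylt2, Ankhd1 and Ralgapa2, with limma adjusted p-values of 0.0465 to 0.0469. The 139-nt exon of Prkdc, the catalytic subunit of the DNA-dependent protein kinase that joins broken ends, was at 100 in all 3 DMSO libraries and at 76.47 in MK-1775. Its 57 to 110 DMSO reads allow up to 5.26% skipping, and 45 reads covered it in MK-1775. Rnaseh2b, a subunit of the ribonuclease that removes ribonucleotides from DNA, had an 81-nt exon at 100 in DMSO and 86.57 in MK-1775. Rhebl1, a Ras-like GTPase, had an 82-nt exon at 100 in DMSO and 86.63 in MK-1775. The 3 exons are shown in capitals with 20 nt of each neighbouring exon, beside the exon of Pkmyt1 described next, because the DMSO libraries included them fully or nearly so. On GRCm38 they lie at chr16:15785910-15786048, chr14:62370472-62370552, chr15:98878453-98878534 and chr17:23735200-23735372, in that order.
Prkdc: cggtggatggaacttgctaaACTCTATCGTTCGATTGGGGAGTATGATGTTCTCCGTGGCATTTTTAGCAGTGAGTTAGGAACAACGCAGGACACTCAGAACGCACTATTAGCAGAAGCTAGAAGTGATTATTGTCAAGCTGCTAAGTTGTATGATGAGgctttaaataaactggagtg
Rnaseh2b: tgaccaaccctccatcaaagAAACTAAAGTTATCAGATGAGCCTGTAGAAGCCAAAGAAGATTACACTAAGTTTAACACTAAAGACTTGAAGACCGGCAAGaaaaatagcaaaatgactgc
Rhebl1: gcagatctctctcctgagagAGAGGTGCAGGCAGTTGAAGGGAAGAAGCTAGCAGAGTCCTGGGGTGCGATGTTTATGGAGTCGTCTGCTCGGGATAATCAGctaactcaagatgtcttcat
Pkmyt1: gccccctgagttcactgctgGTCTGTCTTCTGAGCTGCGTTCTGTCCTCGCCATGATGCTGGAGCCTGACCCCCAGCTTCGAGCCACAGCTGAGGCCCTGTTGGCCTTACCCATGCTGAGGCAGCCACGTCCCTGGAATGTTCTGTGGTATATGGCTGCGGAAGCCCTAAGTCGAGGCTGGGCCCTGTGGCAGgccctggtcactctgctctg

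In the WEE1 pathway, 3 of 178 cassette exons were lower and 0 higher. The 173-nt exon of Pkmyt1 was at 100, 97.4 and 100 in DMSO and at 82.46 in MK-1775. The 37-nt exon of Cdc25b, the phosphatase that opposes WEE1, read 98.89, 96.38 and 99.56 against 87.25. A 42-nt exon of Btrc, of the ubiquitin ligase that degrades WEE1, read 33.33 and 34.18 in DMSO A and B, did not pass in DMSO C, and read 20.76 in MK-1775. These 3 exons lay below their DMSO values. Their share of the list, 1.69%, was below the 2.59% of all cassette exons.

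In p53 target genes 2 of 85 cassette exons were lower, a share of 2.35% and so near the 2.59% of all cassette exons, and 0 higher. The 85-nt exon of Mdm2, the ubiquitin ligase that holds p53 down (mm9 chr10:117146756-117146840), read 79.32, 84.25 and 80.9 in DMSO and 52.53 in MK-1775. That was the lowest of all 34 libraries, on 1628 reads (adjusted p = 0.26, limma). The 85-nt exon of Fdxr, a mitochondrial reductase (mm9 chr11:115131329-115131413), read 90.53, 81.18 and 81.67 against 59.22, also the lowest of the 34.

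Genes of the DNA damage response held 6 lower (1.41%) and 2 higher (0.468%) of 427 cassette exons, against 2.59% and 0.345% of all cassette exons. Chek2 (a checkpoint kinase, exon of 116 nt at mm9 chr5:111295957-111296072) read 96.56, 99.04 and 98.26 in DMSO and 81.05 in MK-1775. Rad50, of the complex that senses broken ends, had 2 lower exons, at 93.97, 96.21 and 98.55 against 84.84 for the 205-nt exon and at 90.29, 95.46 and 98.01 against 81.62 for the 152-nt exon. Both Rad50 values were the lowest of the 34 libraries. The exon of Mdc1, which gathers repair factors at breaks, read 98.42, 99.56 and 100 against 86.38, and that of Rad54l, a recombination motor, read 85.57, 76.55 and 68.09 against 65.57. The increases were an 80-nt exon of Rad51c (5.81 and 5.31, against 15.79) and a second Prkdc exon of 133 nt (95.0 and 80.49, against 100), and neither passed in DMSO C. Among G2/M genes 2 of 377 exons were lower (0.531%), in Cdc25b and in Kif23, a kinesin of cytokinesis (97.43, 97.88 and 98.58, against 87.41). In G1/S genes no event was called, among them 0 of 295 cassette exons and 0 of 451 introns.

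Genes of splicing regulators also held called exons. Among hnRNP proteins, which bind nascent RNA, 4 of 84 cassette exons were lower (4.76%) and 1 higher (1.19%), against 2.59% and 0.345% of all cassette exons. The paralogs Hnrnph1 and Hnrnph3 both lost a 139-nt exon. Hnrnph1 (chr11:50381459-50381597) read 96.69, 96.71 and 96.61 in DMSO and 84.74 in MK-1775, the lowest of the 34 libraries on 8394 reads (adjusted p = 0.11, limma). Hnrnph3 (chr10:63018760-63018898, minus strand) read 78.78, 80.24 and 80.64 against 59.56. The 2 exons are the same in 126 of 139 positions (90.6%), so some reads could come from either gene. They are printed in lower case with the differing positions in capitals.
Hnrnph1: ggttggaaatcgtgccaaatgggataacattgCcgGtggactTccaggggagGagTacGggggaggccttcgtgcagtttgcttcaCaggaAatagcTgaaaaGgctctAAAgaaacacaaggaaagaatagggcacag
Hnrnph3: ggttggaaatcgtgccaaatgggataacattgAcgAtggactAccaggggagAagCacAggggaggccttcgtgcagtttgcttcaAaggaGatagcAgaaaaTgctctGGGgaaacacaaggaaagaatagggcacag

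The other hnRNP exons were narrow in DMSO and well covered. Hnrnpd read 53.89, 52.81 and 53.38 against 41.1 at a 147-nt exon, and Hnrnpa2b1 read 66.85, 65.16 and 64.18 against 52.14 at a 120-nt exon. Hnrnpl had the increase, 4.06, 4.29 and 4.54 in DMSO and 15.08 in MK-1775 at a 70-nt exon, the highest of the 34 libraries.

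Among SR proteins and their kinases, 3 of 96 exons were lower (3.12%, near the 2.59% of all cassette exons) and 1 higher (1.04%). The CLK kinases phosphorylate SR proteins, and Clk1 read 94.31, 94.88 and 90.73 against 83.3 while Clk3 read 87.51, 89.6 and 89.95 against 77.95. Clk4 was higher, at 48.25, 43.55 and 42.49 against 55.34. Srrm1, a splicing coactivator, lost a 42-nt exon, at 71.12, 63.33 and 66.81 against 53.38.

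Among neural splicing regulators, 5 of 152 exons were lower, a share of 3.29% and so near the 2.59% of all cassette exons, and 0 higher. The 79-nt exon of Srrm3, the microexon activator (mm9 chr5:136345590-136345668), read 57.53, 73.77 and 58.23 in DMSO and 38.3 in MK-1775. Ptbp2 represses neural exons, and its 34-nt exon, whose skipping shifts the frame, read 83.2, 87.03 and 81.61 against 70.52. Rbfox2 read 69.28, 70.45 and 78.23 against 59.79, Celf1 read 27.44, 32.58 and 32.63 against 20.82, and Celf5, which did not pass in DMSO C, read 93.1 and 100 against 85.19. In core spliceosome genes 0 of 226 cassette exons were called.

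**Figure D3:**
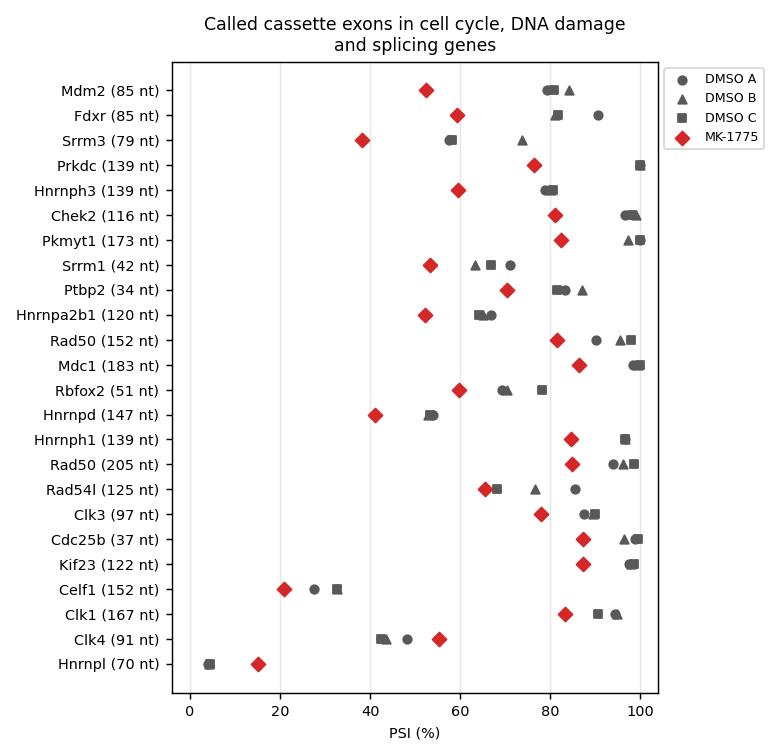
PSI of the called cassette exons in cell cycle, DNA damage, p53 and splicing genes that passed in all 4 libraries, with DMSO A, B and C in grey and MK-1775 in red. MK-1775 lies left of every DMSO point except in the 2 lowest rows, Clk4 at 55.34 and Hnrnpl at 15.08.

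Over all cassette exons, the widest decreases exceeded 35 PSI. Zfp446, a zinc finger gene, went from 85.71, 92.91 and 100 by a ∆PSI of -42.9, and Phldb1, which anchors microtubules to adhesions, from 94.32, 91.3 and 82.48 to 50.97. Dmpk, the kinase of myotonic dystrophy, had 2 such exons, at 80.3, 80.65 and 92.16 against 47.37 and at 50.65, 63.37 and 78.33 against 22.81. The clock gene Per3 read 81.82, 100 and 100 against 55.56, and Zfp692 read 91.52, 85.38 and 86.01 against 51.71. All 6 were the lowest of the libraries that passed.

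Fewer exons gained by as much. Ng23 read 18.28, 25.66 and 17.65 in DMSO and 73.33 in MK-1775, and Dazl, an RNA-binding protein of germ cells, read 25.66, 34.88 and 24.0 against 72.22. Unc5a, a netrin receptor, read 4.29, 3.03 and 5.88 against 32.32. Slc8a1, a sodium-calcium exchanger, read 20.57, 21.64 and 13.22 against 45.71. Nhsl1 and BC067068 completed the set with ∆PSI values of 27.9 and 26.7.

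Introns called higher were short. The 427 had a median length of 293 nt, against 1268 nt for all introns tested. Introns with a DMSO PSI above 10 had a median of 313 nt. In that set the 164 higher introns had a median of 163.5 nt, and the 159 lower ones were longer, at 418 nt. At a DMSO PSI of 10 or less, the 263 higher introns had a median of 542 nt, against 1296 nt. Of the 427, which were called on a high MK-1775 value, 204 had their highest retention there among all libraries that passed. The Gltscr1 intron of 389 nt read 9.38, 9.09 and 7.69 in DMSO and 60.0 in MK-1775 on 20 reads. Tradd, an adaptor of the TNF receptor, read 36.59, 16.36 and 24.14 against 71.43, and Fance, of the Fanconi anemia core complex, read 3.43, 4.11 and 12.64 against 51.92. These are large differences on few reads, 20 to 42 in MK-1775.

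In the fixed lists, Mus81, the nuclease that cuts stalled replication forks, starts 5.48 Mb into chromosome 19 and had 2 introns retained more, at 6.15, 6.53 and 8.89 against 23.73 and at 1.67, 0.66 and 0 against 12.5. Bax, the pore former of apoptosis, read 9.76, 6.17 and 7.64 against 19.35. Cdc25c lost retention, at 20.43, 19.59 and 25.93 against 6.49. The limma rule called the introns of Dixdc1 (0 in each DMSO library, 21.21 in MK-1775) and Rbl1 (0, against 10.0), where 32 to 65 and 65 to 103 DMSO reads allow up to 9.38% and 4.62%. The largest decreases were in Bsg (54.78, 59.09 and 100, against 29.73) and 1700092M07Rik (72.97, 100 and 78.95, against 42.86), with wide DMSO spreads.

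Alternative splice sites were called about equally in both directions. At a 3′ site of Ascc2, of a DNA alkylation repair complex, PSI was 0 in all DMSO libraries, where 101 to 225 reads allow up to 2.97%, and 13.49 in MK-1775, the only site called by limma. Slx4, the scaffold of structure-specific nucleases, starts 3.98 Mb into chromosome 16. It used 1 of its 5′ sites less, at 83.52, 84.51 and 83.16 against 59.0, and another more, at 8.79, 10.36 and 14.17 against 27.62. Ggcx, which carboxylates clotting factors, used a 3′ site at 28.71, 28.81 and 34.48 in DMSO and at 61.01 in MK-1775.

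Gene levels were available as 1 RPKM value a condition, merged over replicates, so they carried no test. The log2 ratio of MK-1775 over DMSO, with 0.5 added to each value, had a median of -0.30 over the 9712 genes above 5 RPKM in either condition. Ratios are given relative to that median, and a list median between 0 and 0.30 on this scale lies below 0 without the centring. On this scale 321 genes were more than 2-fold higher (3.31%) and 59 lower (0.607%), so that 84.5% of changes were increases. Without the centring the counts were 228 higher and 261 lower, and 46.6% were increases. The reads across the junctions of each gene were counted as reads per 1000000 junction reads of the library (junction RPM). They were added as a second measure after the data were seen, because they allow a limma test. Its spread came from the DMSO libraries and the paired libraries of the 4 HDAC inhibitors. The lone MK-1775 library was assumed to vary like them, so SE and p do not cover variation of the treatment. A gene needed 30 reads in any DMSO or MK-1775 library. Genes almost absent from DMSO entered through MK-1775, so the counts lean towards increases. Of 10534 genes with at least 30 such reads, 557 were more than 2-fold higher at an adjusted p below 0.05 (5.29%) and 44 lower (0.418%). At any size, 1359 were higher and 1035 lower.

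Wee1 itself was not changed past the test. Its RPKM was 20.62 in DMSO and 12.94 in MK-1775, a centred log2 ratio of -0.35. Its junction RPM was 52.9, 52.8 and 56.2 in DMSO and 42.8 in MK-1775 (adjusted p = 0.19, limma). The value was below all 3 DMSO libraries. Srrm3 and Srrm4, the microexon activators, had adjusted p-values of 0.79 and 0.83.

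Several genes that drive the cell cycle were lower. Of 30 WEE1 pathway genes above 5 RPKM, 2 were more than 2-fold lower and 1 higher, with a median of -0.31. Over all genes the shares were 0.607% lower and 3.31% higher. Cdk1, the kinase that WEE1 restrains, stood at 667 RPKM in DMSO and 248 in MK-1775. In junction RPM it was at 462, 473 and 518 in DMSO and 235 in MK-1775, a log2 difference of -1.06 ± 0.16 (SE). Rrm2, the ribonucleotide reductase subunit that supplies nucleotides for replication, was at 162, 142 and 153 against 74.1. Cyclin E1 (Ccne1) was at 69.5, 65.4 and 71.5 against 35.6, and Cdc25b at 151, 159 and 146 against 77.5. MK-1775 lay clear below the 3 DMSO libraries in each. In junction reads, 13 of 27 genes of the list were lower at any size and 2 higher, against 1035 lower and 1359 higher of 10534 genes.

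G1/S genes had a median of -0.42, with 3 of 42 above 0, and 2 were more than 2-fold lower, Rrm2 and the thymidine kinase Tk1 (69.43 RPKM in DMSO, 26.93 in MK-1775). Over all genes 0.607% were more than 2-fold lower. In junction reads 24 of 40 were lower at any size and 0 higher, against 1035 lower of 10534 genes. Of 35 genes of the DNA damage response none passed 2-fold and the median was -0.20, while 17 of 34 were lower at any size in junction reads. The 47 G2/M genes had a median of -0.09, and 2 were more than 2-fold lower, Cdk1 and the topoisomerase Top2a, which stood at 1921, 1797 and 1930 junction RPM in DMSO and at 917 in MK-1775. Spc25, of the kinetochore, was also lower by junction reads, at 57.4, 55.5 and 56.9 against 28.3.

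Some stress-induced genes were higher. Cdkn1a, the p53 target p21 that inhibits cyclin-dependent kinases, rose from 12.2, 12.5 and 11.4 junction RPM in DMSO to 35.0 in MK-1775, a log2 difference of 1.51 ± 0.16 (SE). Bbc3 (PUMA, a promoter of apoptosis) passed 2-fold in RPKM, 2.84 against 6.12, but not the limma test (adjusted p = 0.13). These were the 2 past 2-fold of 19 p53 targets above 5 RPKM, against 3.31% of all genes, and the list's median was 0.05. In the integrated stress response, 2 of 31 were more than 2-fold higher, against 3.31% of all genes. They were the transcription factors Ddit3 (27.9, 28.3 and 23.9 junction RPM, against 80.6) and Atf3 (6.54, 4.47 and 5.34, against 15.7). The immediate early genes passing were Gadd45g (8.48, 8.38 and 6.68, against 37.8), Fos (3.98, 4.58 and 3.77, against 18.3) and Klf6 (25.4, 23.6 and 24.8, against 67.6), 3 of 15. In junction reads 6 of 14 passed, against 5.29% of all genes. Klf6 starts 5.86 Mb into chromosome 13 and is 1 of the 74 genes near a chromosome start described later. In these 5 genes MK-1775 was clear above the DMSO libraries. No unfolded protein response gene passed 2-fold in RPKM (0 of 14), nor did any in sterol synthesis (0 of 22, median -0.34) or heat shock (0 of 10). In junction reads Xbp1, a transcription factor of the unfolded protein response that starts 5.52 Mb into chromosome 11, was higher by 1.08 on the log2 scale.

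**Figure D4:**
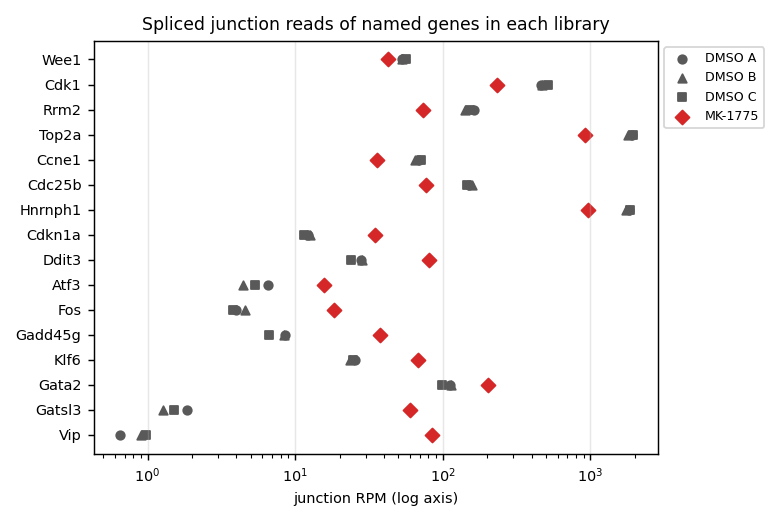
Spliced junction reads per 1000000 (junction RPM), on a log axis, of named genes in DMSO A, B and C (grey) and MK-1775 (red). Cdk1 is lower at 235 against at least 462, Cdkn1a higher at 35.0 against at most 12.5, and Vip moves furthest of the genes plotted.

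Splicing regulators above 5 RPKM did not pass 2-fold in centred RPKM. Of 23 hnRNP genes 3 lay above the median of all genes and the list's median was -0.40. Hnrnph1 was the lowest of the 28 conditions in RPKM, 726 in DMSO and 332 in MK-1775, a fold of 0.458 before centring and a centred log2 ratio of -0.82, and its junction RPM was 1814, 1742 and 1848 against 957. SR proteins and kinases (0 of 20, median 0.01), neural splicing regulators (0 of 27, median -0.17) and core spliceosome genes (0 of 38, median 0.07) had no member past 2-fold in either direction on that scale. In junction reads 1 of 25 neural splicing regulators was more than 2-fold higher, Celf5, which is under 5 RPKM, at 5.57, 4.15 and 2.80 against 8.84 (adjusted p = 0.020, limma).

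Replication-dependent histone genes, whose messages normally end in a stem-loop and not in a poly(A) tail, were higher in these polyA-selected libraries. Of 21 above 5 RPKM, 20 were more than 2-fold higher, with a median of 2.35, and 19 without the centring. The floor takes genes above 5 RPKM in either condition. Members low in DMSO, such as Hist1h2ai (0.84 RPKM, against 12.09), entered through MK-1775, so this count leans towards increases. Over all 69 genes of the list, summed RPKM was 124.35 in DMSO and 516.59 in MK-1775. Hist1h4n stood at 11.63 RPKM in DMSO and 89.07 in MK-1775, and Hist1h3i at 3.61 and 29.58. The only one with enough junction reads, Hist1h2bc, was at 36.1, 23.05 and 23.8 RPM in DMSO and 103 in MK-1775. The medians of the 26 other compounds ran from -0.78 to 2.64, so MK-1775 was near the top of that range and not beyond it. Histone genes are near-identical copies, and the share of each is uncertain.

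The neuroblastoma markers had a median of -0.28, and 1 of 24 was more than 2-fold higher in centred RPKM, against 3.31% of all genes. This was Gata2, which specifies sympathetic neurons, at 47.92 RPKM in DMSO and 85.42 in MK-1775 (centred log2 ratio 1.13). Its junction RPM was 111, 113 and 99.3 against 203, a log2 difference of 0.89 that stays under 2-fold. Snap25, of the synaptic fusion machinery, was the lowest of the 28 conditions at 46.5 RPKM against 108 in DMSO. Of the marker lists of other cell types, fibroblast genes rose from low levels. Their summed RPKM was 0.58 in DMSO and 3.63 in MK-1775, and Col1a1, Col1a2 and Pdgfra passed the limma test, as did the endothelial markers Pecam1 and Cdh5. Col1a2, which starts 4.50 Mb into chromosome 6, had 0 reads in DMSO and 234 in MK-1775, at least 290.2-fold higher against a floor of 3 reads over the 3 DMSO libraries. Immune and epithelial markers had no gene with enough junction reads, and no glial marker passed. Of the fibroblast markers 3 of 6 were tested in junction reads, and of the endothelial markers 2 of 4. Col1a2 and Cdh5 had no DMSO reads and entered the test through MK-1775 alone, so they could only be called higher. The part of these low-level genes in other results was not tested.

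Many of the largest increases lay close to the start of a chromosome, 11 of the 15 largest among genes listed above 0 RPKM in both conditions. Among genes listed at 0 in DMSO, the pseudogene RP23-81D2.1 on chromosome 11 (25.76 RPKM in MK-1775) and the small RNA Gm25820 on chromosome 3 (24.24 RPKM) lay far from a start. Mouse chromosomes have their centromere at one end, and the reference sequence is numbered from that end. This pattern was noticed in the data and is described with no test. Of 319 protein-coding genes above 5 RPKM that start within 6 Mb of the sequence start (GRCm38), 74 were more than 2-fold higher (23.2%) and 0 lower. Their median centred log2 ratio was 0.42, and 273 of them lay above 0. Of the 8793 such genes beyond 6 Mb, 108 were higher (1.23%) and the median was -0.02.

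The excess fell away with distance. The share of genes more than 2-fold higher was 27 of 102 between 3 and 4 Mb, 26 of 123 between 4 and 5 Mb and 21 of 94 between 5 and 6 Mb. It was 4 of 77 in the next Mb, 3 of 51 between 7 and 8 Mb, 3 of 79 between 8 and 9 Mb and 0 of 31 between 9 and 10 Mb. The median fell later than this share. Between 6 and 7 Mb it was 0.32, with 65 of 77 genes above 0, and between 7 and 8 Mb it was 0.06. In junction reads the median was 0.40 and 0.17 in the same bins. The limit of 6 Mb therefore does not mark where the excess ends. At the opposite end, among 325 genes in the last 3 Mb of annotated genes, 0 were higher.

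The pattern was seen on most chromosomes. Of 16 with at least 5 such genes, 15 had a median above 0, from 0.93 on chromosome 11 down, and chromosome 9 stood at -0.04. At least 1 gene was more than 2-fold higher on 13 chromosomes. Chromosome 11 held the most, 21 of 45, followed by chromosome 7 with 11 of 36 and chromosome 19 with 9 of 68.

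Junction reads gave the same picture library by library. Of 389 genes within 6 Mb, 127 were called higher by limma (32.6%) and 0 lower, against 430 of 10145 beyond (4.24%). The median log2 difference of these 389 genes was 0.57 in MK-1775. It was 0.0039, 5.8e-05 and 0.0046 in DMSO A, B and C, which lie near 0 because their own mean is the reference. Against that same mean it was -0.06 to 0.10 in the 30 other libraries. In RPKM the medians of the 26 other compounds ran from -0.18 to 0.05, against 0.42 in MK-1775. Between 0 and 37 genes within 6 Mb were more than 2-fold higher in those compounds, against 74 in MK-1775.

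**Figure D5:**
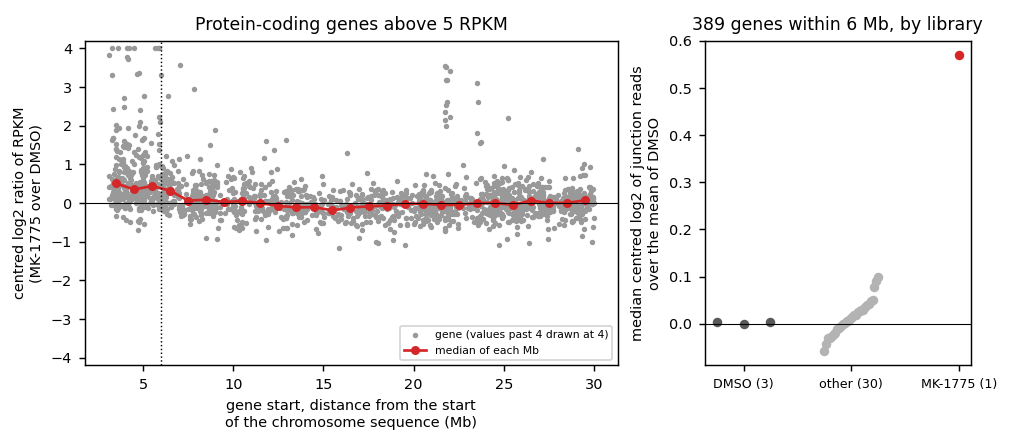
Left, centred log2 ratio of RPKM for each protein-coding gene above 5 RPKM against the distance of its start from the start of the chromosome sequence in Mb, with the median of each Mb in red and a dotted line at 6 Mb. Right, median centred log2 difference in junction reads of the 389 genes within 6 Mb in each library, where MK-1775 stands at 0.57 and no other library above 0.10.

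The genes near the start were of unlike function. Vip, the neuropeptide vasoactive intestinal peptide (chr10:5639218-5647617), was at 0.648, 0.905 and 0.98 junction RPM in DMSO and at 84.0 in MK-1775, a log2 difference of 6.61 ± 0.37 (SE, adjusted p = 1.97e-07, limma). Gatsl3 (chr11:4218225-4222409) was at 1.86, 1.27 and 1.51 against 60.4. Tnnt1, a skeletal muscle troponin on chromosome 7, was at 0, 0.0276 and 0.049 against 15.9.

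Muscle and secreted proteins that N2A cells barely express were among them. Myl7, an atrial myosin light chain, was listed at 0 RPKM in DMSO and at 19.53 in MK-1775. It had 0 junction reads in the 3 DMSO libraries and 458 in MK-1775, at least 567-fold higher against the same floor. Camk2b, a neuronal calcium kinase, was at 1.6, 1.17 and 2.16 against 28.2, and Sec14l2, a lipid transfer protein, at 0.266, 0.331 and 0.147 against 23.4. Genes well expressed in DMSO moved too: Pnpla6, a phospholipase of neurons, stood at 47.1, 49.3 and 44.1 against 182, and the neurofilament gene Nefh at 35.6, 35.0 and 34.8 against 111.

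Sfi1 starts 3.13 Mb into chromosome 11 and was at 32.7, 34.2 and 32.7 against 363. Beside it an antisense gene at chr11:3142048-3143363 went from 0.86 to 569 RPKM in these unstranded libraries, the largest change of any gene. Without strand, reads of a gene and of its antisense partner cannot be told apart, and copies of Sfi1 add to this. Beyond 10 Mb the protein-coding genes with the largest increases were Gm10800, listed at 0 in DMSO and at 12.66 in MK-1775, the cold receptor Trpm8 (0.01 and 6.04 RPKM) and then mainly histone genes.

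Skipped exons were not more frequent in these regions. Lower cassette exons made up 2.24% of the 1700 tested within 6 Mb of a chromosome start and 2.60% of the 55644 beyond. Higher introns made up 1.03% of 2417 within 6 Mb and 0.477% of 84320 beyond, and higher cassette exons 1.47% and 0.311%. Lower introns made up 0.703% within 6 Mb and 0.168% beyond. Alternative 5′ sites were called more often within 6 Mb in both directions, with 2.76% higher and 2.91% lower against 1.15% and 1.18% beyond.

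The largest decreases in RPKM were mainly pseudogenes and small RNAs. Rpl14-ps1 went from 32.22 to 1.93 RPKM and Kansl2-ps from 6.71 to 0.18, both processed pseudogenes whose reads are shared with their parent genes. The small nucleolar RNA Snord49a went from 16.22 to 3.37 RPKM, a class that polyA libraries capture poorly. Of the protein-coding genes above 5 RPKM, 182 were higher and 27 lower.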

How the data were processed

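Libraries were polyA+ RNA prepared without strand information. Per the labels and the study's methods, the authors quantified splicing with vast-tools on mm9 and deposited PSI values as percent in each library, with a quality string that holds the corrected reads for and against inclusion. They quantified genes with Salmon (0.10.2 per the submitters' processing notes) and edgeR and deposited RPKM, 1 merged value a condition. The count of reads in each quality string was used as deposited. A further deposited table of the authors' own PSI summaries and comparisons was not used. Exons needed coverage of at least LOW and balance of OK or B1 (coverage alone for 303 microexons with no balance score), and introns 15 reads and a balance p above 0.05. An event was called at 10 PSI and a posterior above 0.95 from 2000 draws of a Beta distribution in each library. limma 3.58.1 (R 4.3.3) was fitted to the logit of PSI with 0.5 reads added, and to log2 reads per 1000000 junction reads centred on the median, with Benjamini-Hochberg adjustment over all events or genes. RPKM ratios had 0.5 added, a floor of 5 RPKM and a limit of 2-fold. Scripts ran in Python 3.11.15 and were tested on simulated data. Depth limits each PSI, and intervals cover counting error only.

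Named events were the 6 largest called in each class and direction outside the DMSO range, those called by limma, called events in list genes and the RT-PCR panel. Named genes were the 15 largest rises and falls among genes listed above 0 RPKM in both conditions, Wee1, Srrm3, Srrm4 and list members. Members and lists were chosen with earlier results of these data known. Junction reads per gene and distance from the chromosome start were chosen after seeing the data. Positions are GRCm38 (GENCODE, 99.8% of gene identifiers matched) for genes and printed exons, and mm9 for the distance of junction-read genes and events. Exon sequences were found by matching the exon and both intron lengths. Some items that this rule names are not reported here.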

Additional observations from a re-analysis of the deposited data

How the results depend on the processing

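No paired analysis was possible because MK-1775 has 1 library. Leaving out 1 DMSO library at a time gave 7 to 11 higher and 59 to 64 lower microexons, 251 to 265 and 1537 to 1554 cassette exons, and 433 to 460 and 179 to 202 introns. At 15 PSI the counts were 3 higher and 32 lower microexons, 75 and 613 cassette exons, 195 and 91 introns, and 426 alternative sites. With stricter coverage introns fell to 226 higher and 80 lower. For exons up to 15 nt, 5 were higher and 27 lower. By the limma rule the counts were 0 and 0 microexons, 0 higher and 8 lower cassette exons, 2 higher and 0 lower introns, and 1 alternative site. The limma rule called 11 events in all, 350 with DMSO and MK-1775 libraries only, 0 to 61 on leaving out 1 DMSO library, and 920 on untransformed PSI.

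For genes, a floor of 1 RPKM gave 1182 higher and 172 lower, with 47 histone genes, 22 and 8 members of other lists, and 150 genes near a chromosome start. Without centring 261 were lower, and the other lists had 7 higher and 24 lower in place of 12 and 5. At 1.5-fold the counts were 718 and 436, with 29 and 41 in the other lists and 124 near a chromosome start. With no floor they were 2284 and 184. At least 100 junction reads gave 258 higher genes. The cause of these shifts was not tested, beyond that stricter limits keep fewer features. Of 518 alternatives for 136 named events, 475 kept direction and call, 41 lost the call, 2 gained it and 0 reversed. Of 249 for named genes in RPKM 243 kept both, and of 111 in junction reads 108 did.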
